A study of Mus musculus with 48 samples.

Results

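The enzymes described here are the cytochrome P450s (Cyp), glutathione S-transferases (Gst), UDP-glucuronosyltransferases (Ugt), aldehyde dehydrogenases (Aldh), flavin monooxygenases (Fmo) and carboxylesterases (Ces) of the mouse lung. Members were the probes whose gene symbol begins with one of these family names and whose detection p was under 0.01 in 4 or more of the 24 arrays of a time point. By name 180 probes for 142 genes qualified, and 79 probes for 61 genes were detected often enough at 1 or both times. There were 73 such probes at 4 weeks and 78 at 16 weeks, among 11624 and 11881 probes tested of the 24613 on the array. The members were 30 of 88 Cyp probes, 22 of 26 Gst probes, 10 of 26 Ugt probes, 12 of 20 Aldh probes, 2 of 5 Fmo probes and 3 of 15 Ces probes.

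Enzymes of this kind make foreign and endogenous compounds easier to excrete. Cytochrome P450s and flavin monooxygenases add or expose a reactive group, aldehyde dehydrogenases and carboxylesterases convert aldehydes and esters, and the transferases attach glutathione or glucuronic acid. Several P450s are switched on by ligand-activated receptors, as Cyp1b1 is by the aryl hydrocarbon receptor (AhR), and in the lung the club cells of the airways are known for high P450 activity.

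Whole-lung RNA came from male A/J mice, a strain susceptible to lung tumors, and from male C57BL/6J (B6) mice, a resistant strain. Mice had received stainless steel fume of gas metal arc welding (GMA-SS, rich in chromium and nickel), mild steel fume (GMA-MS, mainly iron with manganese) or saline vehicle (sham). Each dose was 5 mg/kg, was placed in the pharynx for aspiration and was given 4 times, and lungs were taken 4 or 16 weeks after the last one. Each of the 12 groups had 4 arrays, so that the spread below is that between 4 lungs of 1 group.

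Every value below is a log2 intensity after background correction and quantile normalization within its time point, or a difference of such values. A member was called when the p of limma's linear model, adjusted over all probes tested at that time, was under 0.05, and arrays are numbered by replicate. The arrays detected 9990 to 11421 probes at 4 weeks and 10594 to 11567 at 16 weeks, and their number limits the precision. All 11 genes of a list of alveolar type 2 cell markers were detected, as lung RNA should give. A/J sham replicate 4 at 16 weeks stood apart. The mean of its 2 measurable stomach and intestine markers, Pgc and Tff2, was 14.69, against 8.99 to 9.20 on the other arrays of its group, while the other 10 genes of that list were not among the probes tested. Results that rest on this array are given with and without it. On some arrays a list of squamous epithelium markers was high as well, and its values stand beside Aldh3a1.

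Sequences are shown for the promoters of 2 members, Cyp1b1, which carried the fume response described next, and Cyp2b10, which differed between strains in every set of mice. Each is the 250 bases before the annotated start in the RefSeq table of build GRCm38.p6, in lower case, with capitals at GCGTG on either strand (CACGC where the match is on the other strand), the core that the AhR is known to bind. The Cyp1b1 promoter is chr17:79715062-79715311 on the minus strand and the Cyp2b10 promoter is chr7:25897408-25897657 on the plus strand.
Cyp1b1: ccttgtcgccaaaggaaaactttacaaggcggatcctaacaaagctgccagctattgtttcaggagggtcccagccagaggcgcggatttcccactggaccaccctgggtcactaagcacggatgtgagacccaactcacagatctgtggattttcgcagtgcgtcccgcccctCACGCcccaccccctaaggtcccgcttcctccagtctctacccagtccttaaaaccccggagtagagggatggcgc
Cyp2b10: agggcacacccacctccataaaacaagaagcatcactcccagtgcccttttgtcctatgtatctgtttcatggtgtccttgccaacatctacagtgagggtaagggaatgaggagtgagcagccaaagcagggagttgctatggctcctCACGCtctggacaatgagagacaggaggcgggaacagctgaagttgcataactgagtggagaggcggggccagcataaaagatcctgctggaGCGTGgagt
Cyp1b1 held 1 match, 76 to 72 bases before the start, and Cyp2b10 held 2. A match was found in 17 of 58 promoters of member genes (29.3%), against 28.2% of all 32851 promoters of this length, and 58 promoters could be paired with 47 of the 61 member genes. TGACNNNGC, the core of the antioxidant response element, searched on both strands, was in 6.9% of member promoters and 10.2% of all. Neither motif was shown to be more frequent in front of these genes than elsewhere, and a match is no evidence of binding.

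The first question was which of these enzymes changed in lungs after fume. Cyp1b1 rose in A/J mice given GMA-SS, at 16 weeks, and it was the only member called in any of the 8 tests of fume against sham. Cyp1b1 oxidizes polycyclic aromatic hydrocarbons and estradiol. Its single member probe (ILMN_1232716) gave 10.03, 9.88, 9.69 and 9.79 in the 4 GMA-SS lungs of A/J mice at 16 weeks, against 9.37, 9.28, 9.24 and 9.13 in A/J sham. All 4 fume lungs lay above all 4 sham lungs. The difference was 0.59 ± 0.08 (log2, SE), or 1.51-fold, with a 95% interval of 0.42 to 0.77 and an adjusted p of 5.7e-04. It was positive on each of the 4 beadchips, at 0.66, 0.60, 0.46 and 0.66, where each beadchip carried 1 array of every group. It remained called without any 1 of the 8 arrays, at 0.53 to 0.65. In whole lung, a change in the number of cells of a type and a change in RNA per cell cannot be told apart, in either direction. This holds here and in all comparisons below.

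GMA-MS at the same time gave 9.65, 9.66, 9.58 and 9.75 for Cyp1b1 in A/J lungs, again without overlap with the A/J sham values. The difference from sham was 0.41 ± 0.08, or 1.33-fold (95% interval 0.23 to 0.58, unadjusted p 8.1e-05), and it was not called (adjusted p 0.145, or 0.0875 with the beadchip as a block). The lowest sham lung was replicate 4, the array that stood apart. Without that array Cyp1b1 after GMA-MS no longer met a cutoff of 1.3-fold with an unadjusted p under 0.05. GMA-SS lungs were 0.19 above GMA-MS lungs (95% interval 0.01 to 0.36, adjusted p 0.962), which was not called. Both fume groups were compared with the same sham arrays, so that their differences from sham are not independent.

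At 4 weeks Cyp1b1 was not called in A/J lungs after either fume. The 4 GMA-SS lungs had 9.53, 9.72, 9.70 and 9.83 and the 4 GMA-MS lungs 9.78, 10.05, 9.59 and 9.87, against 9.34, 9.42, 9.45 and 9.69 in sham. Each fume group overlapped sham through 1 sham lung, replicate 4. The differences were 0.22 (95% interval -0.07 to 0.50) for GMA-SS and 0.35 (0.06 to 0.63, adjusted p 0.547) for GMA-MS. The GMA-SS difference was 0.36 larger at 16 than at 4 weeks, which was not called either (unadjusted p 0.032).

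In B6 lungs Cyp1b1 was not called at either time. At 16 weeks it had 9.44, 9.59, 9.62 and 9.36 after GMA-SS and 9.58, 9.46, 9.42 and 9.37 after GMA-MS, against 9.24, 9.36, 9.65 and 9.36 in sham, and the 3 groups overlapped. The differences in B6 at 16 weeks were 0.10 (95% interval -0.08 to 0.27) for GMA-SS and 0.06 (-0.12 to 0.23) for GMA-MS. At 4 weeks they were 0.24 (-0.04 to 0.52) and 0.06 (-0.22 to 0.34), and the intervals allow a rise of up to 0.52 there. The GMA-SS effect at 16 weeks was 0.50 ± 0.12 larger in A/J than in B6 (95% interval 0.25 to 0.74, unadjusted p 4.0e-04), but the difference between strains was not called over all probes (adjusted p 0.239). For GMA-MS it was 0.35 (0.11 to 0.60, adjusted p 0.520).

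**Figure D1:**
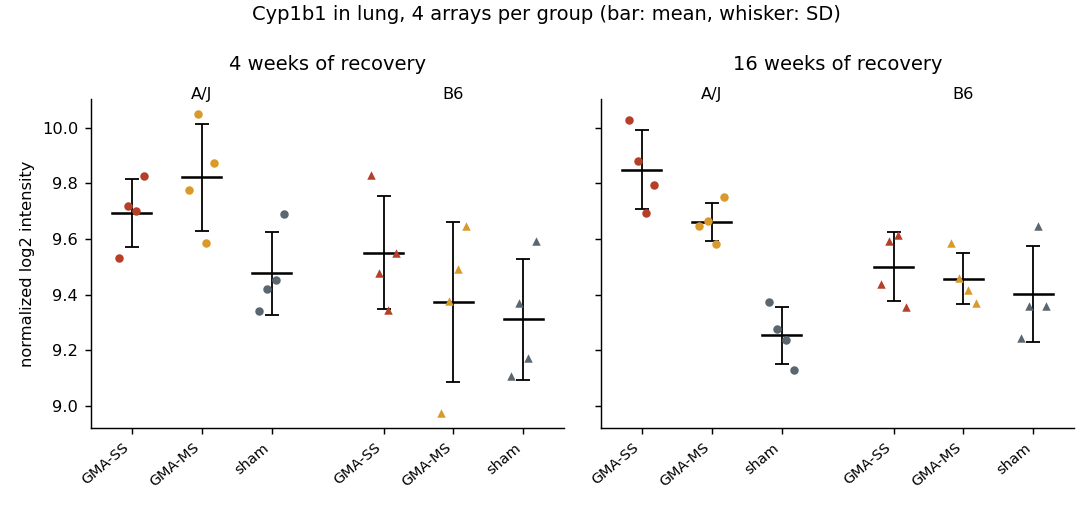
Cyp1b1 in each lung: normalized log2 intensity (vertical axis) for GMA-SS, GMA-MS and sham in A/J (circles) and B6 (triangles) at 4 weeks (left) and 16 weeks (right), with a bar at the mean and whiskers of 1 SD, 4 arrays a group. At 16 weeks the A/J fume lungs sit between 9.58 and 10.03, all above the A/J sham lungs at 9.13 to 9.37, and the B6 groups overlap.

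Between the strains Cyp1b1 showed no call in sham lungs, at 0.16 ± 0.14 (A/J over B6, adjusted p 0.511) at 4 weeks and -0.15 ± 0.08 (adjusted p 0.217) at 16 weeks. After GMA-SS at 16 weeks it was 0.35 higher in A/J than in B6 (adjusted p 0.0030), without overlap. After GMA-MS at 4 weeks it was 0.45 higher (adjusted p 0.0207), and this call was lost without B6 replicate 1 (0.32, adjusted p 0.102), A/J replicate 2 (0.37, adjusted p 0.0821) or A/J replicate 4 (0.43, adjusted p 0.0502). Exposure accounted for 44.0% of the variance of Cyp1b1 at 16 weeks, the highest share of any member, against a median of 6.61% over members and 4.74% over all probes.

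Some macrophage markers were also called in A/J lungs after fume. Of 9 measurable genes of 12, 4 were higher after GMA-SS and 1 after GMA-MS at 4 weeks, and 1 and 0 at 16 weeks, with none lower, where 0.249%, 0.12%, 0.404% and 0.0168% of all probes were called. Mmp12, a macrophage elastase, was the 1 gene called for GMA-SS at 16 weeks (1.65, adjusted p 0.0012). The mean level of the list was 10.49 to 10.96 in the GMA-SS lungs of A/J mice at 16 weeks, 10.09 to 10.88 after GMA-MS and 9.79 to 10.56 in sham, and both fume groups overlapped sham. In B6 lungs it was 9.39 to 9.66, 9.73 to 10.06 and 9.47 to 9.55 in the same order. At 4 weeks, where Cyp1b1 was not called, it was 11.01 to 11.39 after GMA-SS, 10.88 to 11.54 after GMA-MS and 10.21 to 10.60 in sham of A/J mice. The part of these cells in the Cyp1b1 difference was not tested.

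Few other genes of the AhR pathway could be tested. Of 11 genes on the list, 3 were tested (Arnt, the DNA-binding partner of the AhR, its chaperone partner Ptges3 and the target gene Nqo1), and none was called or had an unadjusted p under 0.05 in the 8 tests of fume. Ahr itself and the targets Ahrr and Tiparp were not among the probes tested, and Cyp1a1 and Cyp1a2 were not members. The part of the AhR in the Cyp1b1 difference was not tested. Of the lists for other nuclear receptors and NRF2 (8 of 13 genes tested at 16 weeks), phase 1 partners (24 of 32), conjugation and glutathione (18 of 28) and transporters (7 of 15), 0 genes were called by limma in the 8 comparisons, with 0 to 6 probes of a list at an unadjusted p under 0.05 in each.

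No member other than Cyp1b1 was called after fume. That was 1 of 78 members for GMA-SS in A/J at 16 weeks, against 0.404% of all probes. For GMA-MS at 16 weeks limma called 0 of 78 in A/J (0.0168% of all probes), and at 4 weeks 0 of 73 for GMA-SS (0.249%) and for GMA-MS (0.12%). In B6 lungs the counts were 0 after GMA-SS (0.0602% of all probes at 4 weeks and 0% at 16 weeks) and 0 after GMA-MS (0.0516% and 0.16%). At an unadjusted p under 0.05 the A/J counts were 6 of 73 members for GMA-SS (background 5.2%) and 7 of 73 for GMA-MS (7.11%) at 4 weeks, then 6 of 78 (6.39%) and 9 of 78 (8.1%) at 16 weeks. In B6 they were 0 (3.63%) and 1 of 73 (3.79%), then 4 (4.01%) and 4 of 78 (9.63%). The study's cutoff was a 1.3-fold change with p under 0.05. Whether that p was adjusted is not stated with it, and an unadjusted p was used here, so that counts need not match those of the study. At this cutoff A/J lungs gave 2 members for GMA-SS (background 1.36%) and 2 for GMA-MS (1.03%) at 4 weeks. At 16 weeks they gave 3 (1.26%) and 2 (0.631%), and all are named below or above. B6 lungs gave 0 in each (0.551% and 0.482%, then 0.261% and 0.404%). The median difference of the members from sham lay between -0.03 and 0.03 in these 8 tests, and that of all probes between -0.02 and 0.01.

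**Figure D2:**
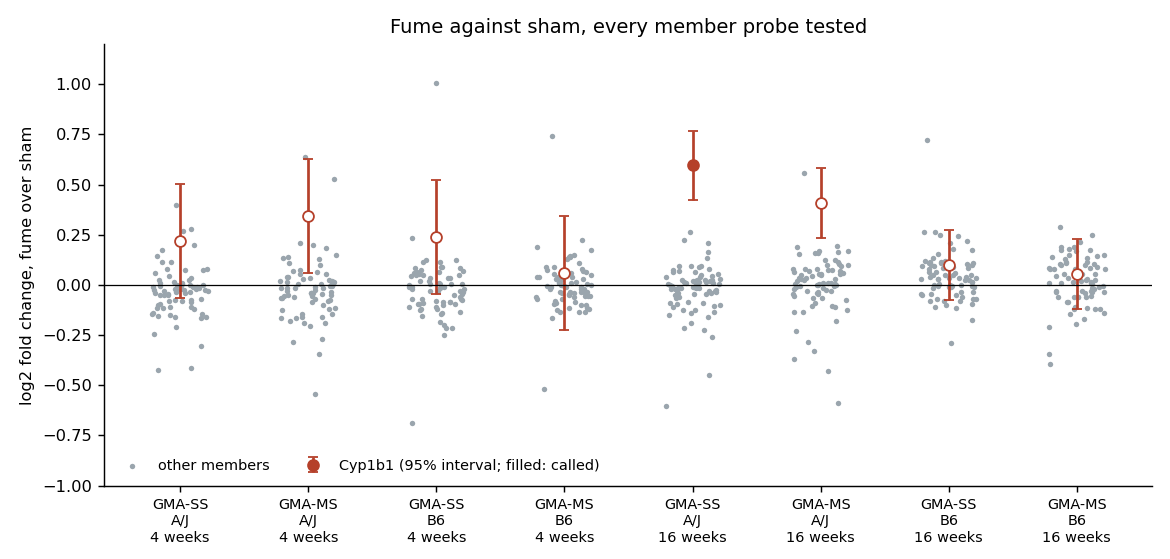
Difference of each member probe from sham (vertical axis, log2 fold change) in the 8 tests of fume against sham (horizontal axis), with Cyp1b1 as the large circle with its 95% interval, filled where called. Cyp1b1 is filled only for GMA-SS in A/J at 16 weeks (0.59), and the high grey point for GMA-SS in B6 at 4 weeks is Cyp26b1 (1.00, SE 0.66, not called).

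The members at the study's cutoff in A/J at 4 weeks were Cyp20a1, Cyp4f39 and Cyp2a4, and the fit without a block called none of them. After GMA-SS a probe of Cyp20a1, a P450 with no settled substrate, was 0.40 above sham (adjusted p 0.238), with 8.70, 9.21, 8.96 and 8.97 after fume and 8.62, 8.73, 8.41 and 8.48 in sham. Cyp4f39, a P450 that hydroxylates very long fatty acids, was 0.41 lower in the same lungs (adjusted p 0.613), with 8.55, 8.17, 8.62 and 8.06 against 9.16, 8.51, 8.92 and 8.48 in sham. It was the 1 member called there with the beadchip as a block, where 0.748% of all probes were called. After GMA-MS both probes of Cyp2a4, a steroid hydroxylase, were above sham by 0.64 and 0.53 (adjusted p 0.585 and 0.651). The brighter probe gave 13.31, 13.23, 13.16 and 12.85 after fume and 12.10, 13.01, 12.01 and 12.89 in sham, so that 2 sham lungs lay as high as the lowest fume lung. Probes of Cyp2a4 may also read its near-identical neighbor Cyp2a5. Cyp2b10, which the nuclear receptor CAR is known to induce, had the smallest p of any member after GMA-MS at 4 weeks in both strains, with differences of 0.20 in A/J (adjusted p 0.426) and 0.14 in B6 (adjusted p 1.00), neither called.

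At 16 weeks the smallest p values beside Cyp1b1 were at small differences. In A/J the brighter Cyp4f16 probe had 8.38, 8.38, 8.42 and 8.34 after GMA-MS, against 8.28, 8.22, 8.08 and 8.27 in sham, without overlap (0.17 ± 0.05, adjusted p 0.259). In B6 the pi class transferase Gstp3 had 8.42, 8.64, 8.60 and 8.64 after GMA-MS, against 8.18, 8.39, 8.24 and 8.34 in sham, also without overlap (0.29 ± 0.09, adjusted p 0.250). A probe of Cyp27a1, the sterol 27-hydroxylase of mitochondria, was 0.18 above sham in the same B6 lungs (adjusted p 0.299). This probe was detected on 14 of the 24 arrays at 16 weeks, and the other Cyp27a1 probe, detected on all 24, was not called either. After GMA-SS, Gsta3 was 0.13 below sham in A/J (adjusted p 0.471), and in B6 a Ugt1a7c probe was 0.24 above and the P450 Cyp2j9 0.17 below sham (adjusted p 1.00 each). None of these was called. In B6 at 4 weeks the members with the smallest p were Aldh3a1 and the oxysterol hydroxylase Cyp7b1 after GMA-SS (-0.69 and 0.23) and Gstp3, next to Cyp2b10, after GMA-MS (0.17), at adjusted p of 1.00.

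The alpha class transferases Gsta1 and Gsta2 had lower means after fume in A/J at 16 weeks, and the size of this difference rested on A/J sham replicate 4. Gsta2 had 8.40, 8.25, 8.10 and 8.30 after GMA-SS and 8.23, 8.44, 8.10 and 8.33 after GMA-MS, against 8.26, 8.49, 8.47 and 10.25 in sham. The first 3 sham lungs lay within the range of the fume lungs or just above it. With all arrays the Gsta2 differences were -0.60 after GMA-SS and -0.59 after GMA-MS, and without that array they were -0.14 and -0.13. For Gsta1 they were -0.45 and -0.43 with all arrays and -0.09 and -0.06 without it. None was called. Without it, Cyp1b1 after GMA-SS was the 1 member at the study's cutoff in A/J at 16 weeks, and GMA-MS gave 0. That array was the one with the high stomach and intestine markers, and their part in its Gsta values was not tested.

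Aldh3a1, an aldehyde dehydrogenase of stratified epithelia, varied from lung to lung more than with fume. In B6 lungs at 4 weeks it had 12.42, 12.21, 12.20 and 12.90 after GMA-SS and 13.81, 11.97, 12.33 and 12.29 after GMA-MS, against 13.33, 13.71, 12.41 and 13.03 in sham. The difference for GMA-SS was -0.69 ± 0.34 and was not called. The mean level of the squamous epithelium markers (9 of 12 genes measurable) in these lungs was 7.58, 7.63, 7.54 and 10.03 after GMA-SS, 11.98, 7.52, 7.58 and 7.61 after GMA-MS and 10.93, 11.26, 7.53 and 10.43 in sham. In each of these groups the lung highest in Aldh3a1 was also the highest in squamous markers. The call of Aldh3a1 between strains after GMA-SS at 4 weeks (1.27 higher in A/J, adjusted p 0.0109) came with squamous marker levels of 10.52 to 11.45 in those A/J lungs and 7.54 to 10.03 in the B6 lungs. The part of squamous tissue in the Aldh3a1 values was not tested.

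**Figure D3:**
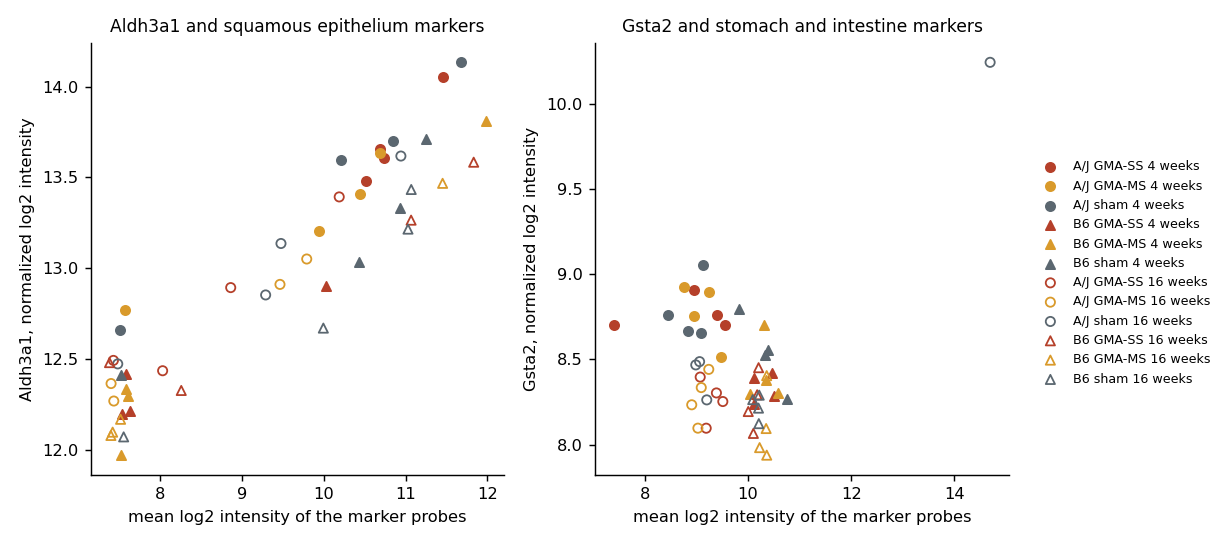
Left, Aldh3a1 (vertical axis, normalized log2 intensity) beside the mean log2 intensity of squamous epithelium markers (horizontal axis); right, Gsta2 beside stomach and intestine markers, one point for each of 48 arrays, with circles for A/J, triangles for B6, filled at 4 weeks and open at 16 weeks, and values of the 2 times normalized separately. In the right panel 1 open circle, A/J sham replicate 4 at 16 weeks, stands alone at 14.69 and 10.25.

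Cyp26b1, which breaks down retinoic acid, had the widest spread. Its values at 4 weeks ran between 9.65 and 13.56, and A/J sham lungs alone gave 13.29, 9.65, 11.36 and 10.66. No difference from sham was called for it, the highest being 1.00 (SE 0.66). The club cell P450 Cyp2f2, known for activating naphthalene, lay between 15.54 and 15.96 at 4 weeks and between 14.96 and 15.25 at 16 weeks. The highest values of any probe at those times were 16.05 and 15.61, and whether its signal was saturated was not tested.

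Between GMA-SS and GMA-MS limma called 0 members in either strain. The background was 0% at 4 weeks in both strains, 0.185% in A/J at 16 weeks and 0.0758% in B6 at 16 weeks. At an unadjusted p under 0.05 there were 5 members in A/J (6.02% of all probes) and 2 in B6 (3.02%) at 4 weeks, and 3 (4.99%) and 3 (5.03%) at 16 weeks. At the study's cutoff the Cyp2a4 probes were 2 such members in A/J at 4 weeks (1.22%). Of 697 tests of members for a difference between effects (between strains in a fume effect, and between times), limma called 0, and 24 had an unadjusted p under 0.05, where 1.81% to 7.13% of all probes did. Cyp20a1 for GMA-SS at 4 weeks (0.585% of all probes), and Cyp1b1 for GMA-SS (0.85%) and Gsto1 for GMA-MS (1.04%) at 16 weeks, met the study's cutoff for a difference between strains, Gsto1 not without A/J sham replicate 4. No change of a fume effect between times was called (background 0.00823% in A/J for each fume and 0% in B6).

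The second question was how the enzymes differ between the strains without fume. In sham lungs at 4 weeks, 16 of 73 members were called (21.9%, against 18.2% of all probes), 14 higher and 2 lower in A/J than in B6 (background 8.59% and 9.62%). In sham lungs at 16 weeks, 19 of 78 were called (24.4%, against 26.8% of all probes), 13 higher and 6 lower in A/J (background 14.4% and 12.4%). The median of the members was 0.10 at 4 weeks and 0.04 at 16 weeks, against 0.03 and 0.02 over all probes. Counting both directions together, the share called was thus near that of the whole array at both times. By direction it was not near at 4 weeks, with 14 of 73 members higher (8.59% of all probes) and 2 lower (9.62%). The higher calls are not all separate genes, as they include both Cyp2a4 probes and the close copies Cyp4a12a and Cyp4a12b. They also include Gstm6 and Cyp4a12a, which were not detected in B6 sham lungs. Many of those higher calls were lost with cyclic loess normalization, as given below. At 4 weeks the calls were 7 Cyp, 5 Gst, 1 Aldh and 1 Ces probe higher and 1 Cyp and 1 Gst probe lower in A/J, and no Ugt or Fmo probe was called. At 16 weeks they were 6 Cyp, 4 Gst and 3 Ugt probes higher and 3 Cyp, 2 Gst and 1 Ugt probe lower. Gstm6, Gstm7, a second Cyp3a13 probe and a Ugt1a6a probe were among these, each not detected in 1 strain of sham. Their part of the tally is not independent of the detection filter. With the beadchip as a block the count at 4 weeks was 28, against 30.8% of all probes. At the study's cutoff the count at 16 weeks was 7, against 11.4% of all probes. Without A/J sham replicate 4 the count at 16 weeks was 15, or 6 at the study's cutoff. Calls over all probes then fell from 3186 to 2766. Without B6 sham replicate 3 the count at 4 weeks was 9.

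**Figure D4:**
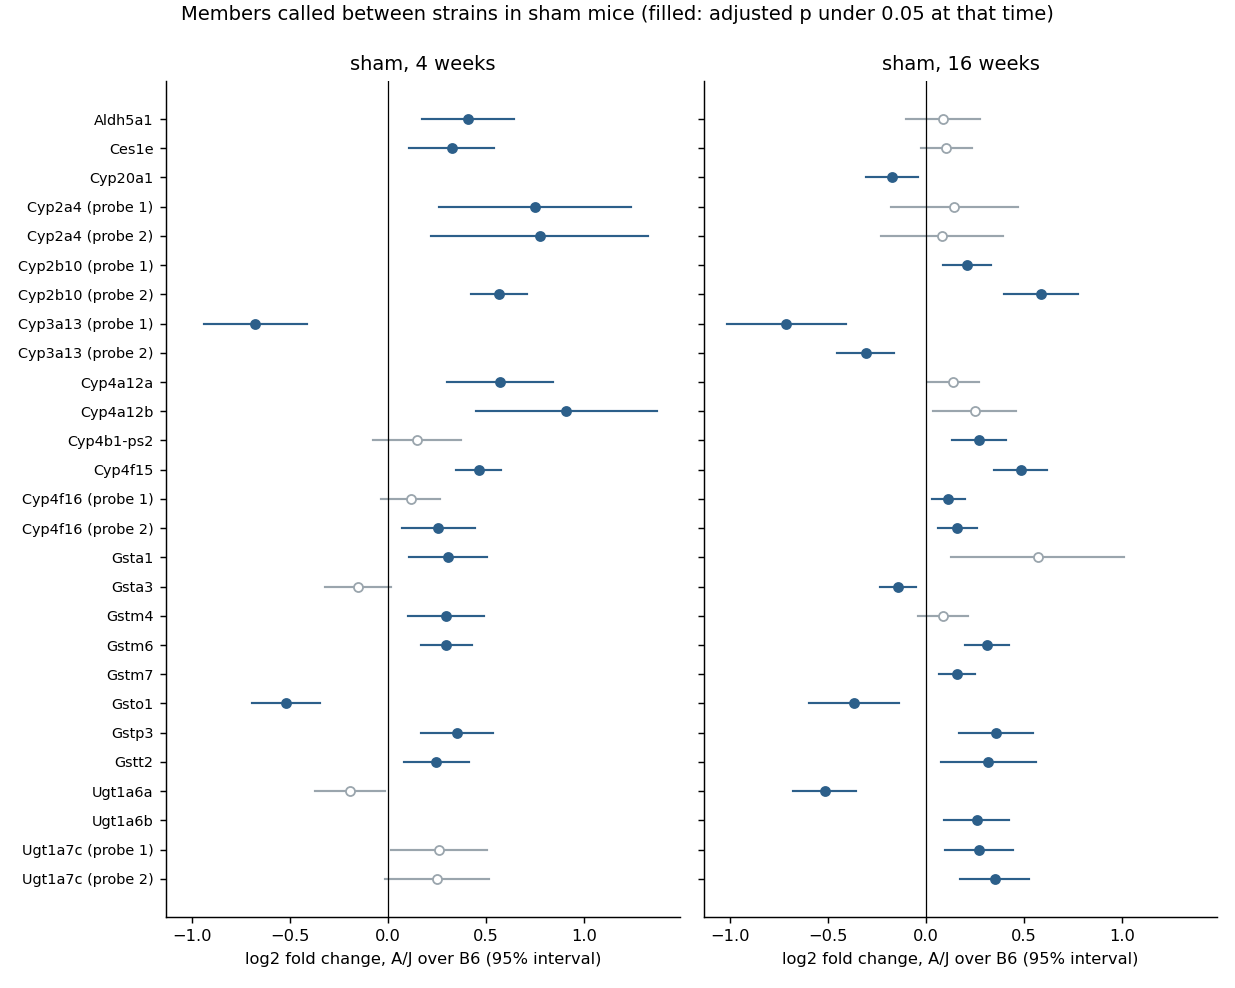
Log2 fold change, A/J over B6, in sham lungs at 4 weeks (left) and 16 weeks (right) with 95% intervals, for each probe called at 1 or both times (vertical axis). Filled points were called at that time, open points were tested and not called, and a missing point was not detected often enough to be tested. Cyp2b10 and Cyp4f15 lie near 0.5 at both times and Cyp3a13 near -0.7.

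In all, 5 members were called in the same direction in all 6 sets of mice that share no array, namely sham, GMA-MS and GMA-SS at each time. Cyp2b10, Cyp4f15 and Gstm6 were higher in A/J and Cyp3a13 and Gsto1 were lower. That was 3 of 72 members tested at both times higher (4.17%, background 3.97%) and 2 lower (2.78%, background 6.32%). Gstm6 was detected in no B6 sham lung, so its place in this count is not independent of the detection filter. A further 34 of 72 members were called in no set (47.2%, background 53.6%).

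Cyp2b10, the main phenobarbital-inducible P450 of the mouse, was higher in A/J. In sham lungs at 4 weeks it had 13.71, 13.92, 13.75 and 13.77 in A/J, against 13.30, 13.12, 13.16 and 13.32 in B6. At 16 weeks it had 13.39, 13.65, 13.49 and 13.38 in A/J, against 12.90, 12.86, 12.86 and 12.94 in B6. The strains did not overlap in any of the 6 sets. The difference was 0.56 ± 0.07 at 4 weeks (1.48-fold, adjusted p 1.4e-06) and 0.59 ± 0.09 at 16 weeks (1.50-fold, adjusted p 3.0e-05), and it ran between 1.37-fold and 1.56-fold over the 6 sets. A dimmer probe of Cyp2b10, tested at 16 weeks only, was also higher in A/J (0.21, adjusted p 0.0091).

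Cyp4f15, a P450 of fatty acid and leukotriene hydroxylation, had 8.92, 8.92, 8.94 and 9.05 in A/J sham lungs at 4 weeks, against 8.46, 8.46, 8.49 and 8.57 in B6 sham lungs. At 16 weeks it had 8.70, 8.72, 8.61 and 8.45 in A/J, against 8.05, 8.16, 8.20 and 8.13 in B6. Again the strains did not overlap in any set. The difference was 0.46 ± 0.06 at 4 weeks and 0.48 ± 0.07 at 16 weeks (adjusted p 1.4e-06 and 4.9e-06), and over the 6 sets the fold ran between 1.27 and 1.47. Strain accounted for 94.2% of its variance at 4 weeks, the highest share of any member, against a median of 19.1% over members and 13.1% over all probes.

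Cyp3a13, a P450 of steroid and drug oxidation, was lower in A/J. Sham lungs at 4 weeks gave 8.67, 8.41, 8.12 and 7.89 in A/J, of which 2 were detected, against 8.94, 9.002, 8.79 and 9.07 in B6. At 16 weeks they gave 7.97, 7.96, 8.53 and 8.46 in A/J, against 9.01, 8.77, 9.05 and 8.94 in B6. The strains did not overlap in any of the 6 sets, and A/J was lower by 1.34-fold to 2.01-fold. In sham the differences were -0.68 ± 0.13 and -0.71 ± 0.15 (adjusted p 3.4e-04 and 6.9e-04). The smallest difference, after GMA-SS at 4 weeks (-0.42, adjusted p 0.0210), lost its call without A/J replicate 4 (-0.39, adjusted p 0.0583) and with cyclic loess normalization (adjusted p 0.207). A second probe, not detected in any A/J sham lung at 16 weeks, was at least 1.19-fold lower there (adjusted p 0.0020). Such bounds set each dim value at the lowest signal told from background on its array, or at the value itself where that was higher. They are differences of group means and carry no sampling error. A probe not detected in 1 strain of sham passed the detection filter through other groups. Its p-value between the strains in sham is therefore not independent of the filter.

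Gsto1, the omega class transferase that reduces dehydroascorbate and methylated arsenic, was lower in A/J. At 4 weeks sham lungs had 13.14, 12.87, 13.01 and 12.85 in A/J, against 13.60, 13.41, 13.56 and 13.38 in B6, without overlap. At 16 weeks they had 12.39, 12.57, 12.58 and 13.19 in A/J, against 13.05, 13.06, 13.08 and 13.0004 in B6, and the high A/J value was that of replicate 4, the array that stood apart. The differences were -0.52 ± 0.08 at 4 weeks (adjusted p 5.7e-05) and -0.37 ± 0.11 at 16 weeks (adjusted p 0.0168). The 16-week call was lost without A/J replicate 1 (-0.27, adjusted p 0.0820) or A/J replicate 2 (-0.33, adjusted p 0.0558), while without A/J replicate 4 the difference was -0.54. It did not hold either in a fit of only the sham groups (adjusted p 0.114). In fume-exposed lungs Gsto1 did not overlap between strains, with A/J lower by 1.37-fold and 1.49-fold at 4 weeks and by 1.64-fold and 1.75-fold at 16 weeks after GMA-SS and GMA-MS.

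Gstm6, a mu class transferase, was near the floor of the array. The called probe had 8.01, 7.92, 8.08 and 8.13 in A/J sham lungs at 4 weeks, against 7.84, 7.76, 7.69 and 7.67 in B6, where it was not detected. At 16 weeks it had 8.03, 8.001, 7.80 and 7.93 in A/J, against 7.60, 7.60, 7.67 and 7.65 in B6, again not detected in B6. It was therefore at least 1.20-fold higher in A/J at 4 weeks and at least 1.24-fold higher at 16 weeks (adjusted p 0.0014 and 9.7e-05). With cyclic loess normalization neither sham call held (adjusted p 0.0849 and 0.177). A bright probe of Gstm6 showed differences of 0.05 and 0.09 that were not called, so that the probes of this gene disagree, and mu class probes may read one another's transcripts.

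**Figure D5:**
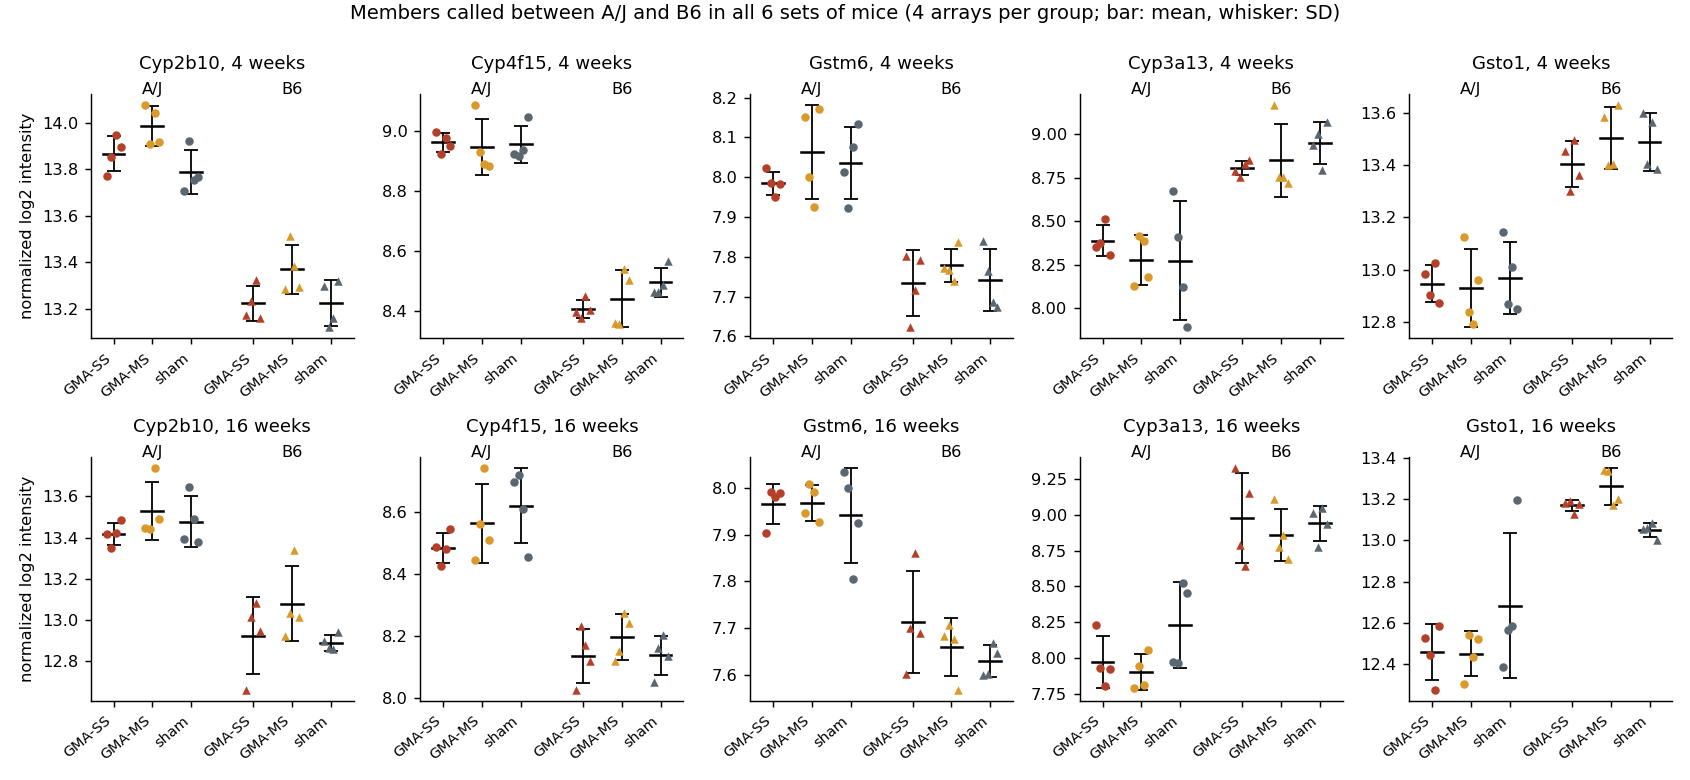
Normalized log2 intensity (vertical axes) of the 5 members called between strains in all 6 sets, at 4 weeks (top) and 16 weeks (bottom), for GMA-SS, GMA-MS and sham in A/J (circles) and B6 (triangles), with a bar at the mean and whiskers of 1 SD, 4 arrays a group. The strains separate in every set except Gsto1 in sham at 16 weeks, where 1 A/J lung at 13.19 lies above all B6 sham lungs.

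Beside these, 3 members were called in sham at both times, all higher in A/J, so that 6 of 72 (8.33%, background 6.64%) were higher and 2 (2.78%, background 7.91%) lower at both. Gstp3, of the pi class, was higher by 0.35 at 4 weeks and 0.36 at 16 weeks (adjusted p 0.0064 and 0.0048). It had 8.96, 8.79, 8.93 and 9.09 in A/J, against 8.59, 8.66, 8.54 and 8.57 in B6 at 4 weeks, and 8.74, 8.60, 8.58 and 8.66 in A/J, against 8.18, 8.39, 8.24 and 8.34 in B6 at 16 weeks. The strains did not overlap at either time, and with cyclic loess normalization neither call held (adjusted p 0.0936 and 0.0600). The theta class transferase Gstt2 (0.24 and 0.32) and Cyp4f16, a relative of Cyp4f15 (0.26 and 0.16), were called less firmly. Gstt2 kept its call at 4 weeks only without A/J replicate 2 and at 16 weeks only without B6 replicate 3, among the 8 fits without 1 array at each time (other adjusted p 0.0525 to 0.0980 and 0.0604 to 0.127). Cyp4f16 kept its call at 4 weeks only without A/J replicate 1 or 3 (other adjusted p 0.0730 to 0.162), and lost it at 16 weeks without A/J replicate 1 (0.14, adjusted p 0.0529), A/J replicate 4 (0.14, adjusted p 0.0526) or B6 replicate 4 (0.14, adjusted p 0.0508).

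Some strain differences in sham were called at 4 weeks only. Cyp4a12b, a fatty acid hydroxylase, had 9.42, 9.23, 9.36 and 10.51 in A/J, against 8.98, 8.44, 8.79 and 8.68 in B6. The strains did not overlap, and the difference of 0.91 ± 0.22 (adjusted p 0.0049) was 0.61 without A/J replicate 4 (adjusted p 0.017). Its close copy Cyp4a12a, not detected in B6, was at least 1.46-fold higher in A/J (adjusted p 0.0027), and the probes of these copies may read each other's RNA. Aldh5a1, the succinate semialdehyde dehydrogenase of mitochondria, was 0.41 higher (adjusted p 0.0124), with 10.04, 9.42, 9.72 and 9.64 in A/J, against 9.33, 9.20, 9.37 and 9.28 in B6, and lost its call without A/J replicate 1 (0.30, adjusted p 0.0639).

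The probes of Cyp2a4 were 0.77 and 0.75 higher in A/J sham lungs at 4 weeks (adjusted p 0.0466 and 0.0291). The brighter one had 12.10, 13.01, 12.01 and 12.89 in A/J, against 11.97, 11.36, 11.53 and 12.06 in B6, so that its groups overlapped. Each call was lost in 4 of 8 fits, without replicate 2 or 4 of A/J (0.60 and 0.64 for the brighter probe, 0.66 and 0.72 for the other) or replicate 2 or 3 of B6 (0.65 and 0.71, and 0.53 and 0.75). Ces1e, a carboxylesterase, Gsta1 and Gstm4 were 0.32, 0.31 and 0.29 higher, and each call was lost in 4 of 8 fits as well. For Ces1e these were the fits without B6 replicate 1 (0.24) or 3 (0.31) or A/J replicate 2 (0.29) or 4 (0.27). For Gsta1 they were without B6 replicate 1 (0.30) or 3 (0.24) or A/J replicate 1 (0.25) or 2 (0.28), and for Gstm4 without B6 replicate 1 (0.24) or 3 (0.28) or A/J replicate 2 (0.30) or 4 (0.22). No difference between times in a strain difference was called by limma for any member (background 0.0165%), and the study's cutoff gave 4, both Cyp2a4 probes, Cyp4a12a and Cyp4a12b (1.07% of all probes), or 1, Cyp4a12b, without A/J sham replicate 4 of 16 weeks.

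Other differences were called at 16 weeks only. A probe of Ugt1a6a, a phenol-conjugating transferase, gave 7.74, 7.71, 7.78 and 7.59 in A/J sham lungs, where it was not detected, against 8.08, 8.21, 8.22 and 8.39 in B6. It was at least 1.40-fold lower in A/J (adjusted p 1.8e-05), without overlap. Both other probes of Ugt1a6a did not show this, with means of 9.19 and 9.50 in A/J, against 9.18 and 9.47 in B6. Ugt1a6b and 2 probes of Ugt1a7c were higher in A/J by 0.26, 0.35 and 0.27 (adjusted p 0.0177, 0.0034 and 0.0189). The call of Ugt1a6b was lost without A/J replicate 3 (0.22, adjusted p 0.0631), and that of the lower Ugt1a7c probe without B6 replicate 1 (0.24) or 2 (0.25) or A/J replicate 4 (0.22). Genes of the Ugt1a cluster share exons, and the probes cannot be assigned to 1 of them with certainty. Cyp4b1-ps2, by its symbol a pseudogene, was 0.27 higher in A/J (adjusted p 0.0038), and which RNA its probe reads was not tested. Gsta3, a bright alpha class transferase, was 0.14 lower in A/J (adjusted p 0.0205). That call was lost without A/J replicate 4 (-0.12, adjusted p 0.0699), A/J replicate 1 or 3, or B6 replicate 2 (-0.13 each). Gstm7, near the floor and not detected in B6, was at least 1.11-fold higher in A/J (adjusted p 0.0085).

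The weaker of these calls depended on the normalization. With cyclic loess 10 of the 16 calls in sham at 4 weeks were lost (Aldh5a1, Ces1e, the brighter Cyp2a4 probe, Cyp4a12a, Cyp4f16, Gsta1, Gstm4, Gstm6, Gstp3 and Gstt2), at adjusted p of 0.0712 to 0.357. At 16 weeks 10 of 19 were lost (Cyp20a1, the dim probes of Cyp2b10 and Cyp3a13, both Cyp4f16 probes, Gsta3, Gstm6, Gstm7, Gstp3 and Ugt1a6b), at adjusted p of 0.0600 to 0.926. The bright probes of Cyp2b10 and Cyp3a13, Cyp4f15 and Gsto1 remained called at both times. How many calls over all probes were lost with this normalization is not given here.

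In exposed lungs the counts between strains were 16 of 73 members after GMA-MS and 12 of 73 after GMA-SS at 4 weeks (background 21.1% and 18.8%), and 16 and 20 of 78 at 16 weeks (25.2% and 26.4%). With the beadchip as a block the counts at 4 weeks were 30 and 24 (35.7% and 31.2% of all probes). At the study's cutoff those at 16 weeks were 4 and 5 (11.5% and 12.1%). Among them were Cyp2a4 after GMA-MS at 4 weeks, 1.22 and 1.14 higher in A/J (adjusted p 0.0016 and 0.0011), and Gsta4, an alpha class transferase for lipid aldehydes, 0.41 higher in A/J after GMA-SS at 4 weeks (adjusted p 0.0061). Lower in A/J after GMA-MS at 4 weeks was Cyp2e1, a P450 that oxidizes ethanol and other small molecules, with 9.62, 9.01, 9.10 and 8.82 in A/J, against 9.83, 10.32, 10.25 and 10.54 in B6. The strains did not overlap (-1.10 ± 0.28, adjusted p 0.0067). Cyp26b1 was lower too, with 11.12, 10.36, 9.96 and 11.34 in A/J, against 12.81, 11.76, 12.78 and 13.25 in B6, without overlap (-1.96 ± 0.66, adjusted p 0.0368). Its call was lost without A/J replicate 2 (-1.85, adjusted p 0.0871) or 3 (-1.71, adjusted p 0.109), without B6 replicate 1 (-1.90, adjusted p 0.0777), 3 (-1.91, adjusted p 0.0757) or 4 (-1.76, adjusted p 0.0959), and with no detection filter (adjusted p 0.0836). Cyp2f2 was 0.14 higher in A/J after GMA-MS at 16 weeks (adjusted p 0.0344), a call lost without A/J replicate 3 (0.12) or 4 (0.12) or B6 replicate 2 (0.14), 3 (0.11) or 4 (0.14), and with cyclic loess (0.05, adjusted p 0.780), the deposited values (adjusted p 0.107) or only the groups compared (adjusted p 0.0979). Whether the strain effects differ between fume and sham was tested as the difference between strains in a fume effect, and no member was called there (background 0.0421% for GMA-SS and 0.101% for GMA-MS at 16 weeks, 0% and 0.0258% at 4 weeks).

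Counts for related genes outside the families in sham lungs are to be read against the shares of all probes, 8.59% higher and 9.62% lower at 4 weeks and 14.4% and 12.4% at 16 weeks. Among phase 1 partners 24 genes were tested, of which A/J had 2 at a higher and 2 at a lower level at 4 weeks, and 4 and 2 at 16 weeks, shares near those of the array. The largest was Adh7, an alcohol and retinol dehydrogenase, at -3.82 and -3.94. Of 18 conjugation genes 3 were higher and 4 lower at each time, with Nnmt, which methylates nicotinamide, at -1.14 and -1.02. Of 7 transporters 2 were higher at 4 weeks and 3 at 16 weeks, led by the organic anion exporter Abcc3 at 1.27 and 1.34, and none was lower. No tested gene of the AhR list was called, and none had an unadjusted p under 0.05. Most of that list was not among the probes tested.

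Some cell type markers were called between strains as well, beside the same shares of all probes (8.59% higher and 9.62% lower at 4 weeks, 14.4% and 12.4% at 16 weeks). Macrophage markers were higher in A/J sham for 5 of 9 genes at each time, with none lower at 4 weeks and 1 lower at 16 weeks. Of 8 club cell markers 2 were lower at each time and 0 or 1 higher. The mean level of the club cell list was 11.03 to 12.25 in A/J sham, against 12.23 to 12.55 in B6 sham at 4 weeks, and 10.73 to 10.98 in A/J, against 12.12 to 12.31 in B6 at 16 weeks. With only 2 of 8 genes called lower, this mean does not describe the list gene by gene. The club cell P450 Cyp2f2 was 0.15 and 0.08 higher in A/J sham at 4 and 16 weeks, not called. The part of these cells in the strain differences of the enzymes was not tested. Whether a strain difference is one of RNA or of a base under the probe was not tested either.

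Detection set which members could be described. Of the members, 58 of 73 were detected on every array at 4 weeks and 63 of 78 at 16 weeks. Just inside the threshold at 4 weeks were Gstcd and a dim probe of Ugt1a7c, detected on 4 arrays, and just outside were Ces5a and the second Cyp3a13 probe, on 3. At 16 weeks Gstm7 was the nearest inside, on 7 arrays, and Cyp2c65 the nearest outside, on 3. No array detected 100 of the 180 probes at 4 weeks and 94 at 16 weeks.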

How the data were processed

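The labels give strain, exposure, time, replicate number and beadchip of 48 Illumina MouseRef-8 v1.1 arrays. The authors deposited unnormalized mean intensity values per probe, with bead numbers and standard errors over beads. Detection p-values, also deposited, compare a probe with the negative controls of its array. Log2 values were deposited by the authors too, made with lumi (variance stabilization and robust spline normalization within a time point), used here only as an alternative.

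Intensities were background corrected (normexp, offset 16, negative controls inferred from detection p) and quantile normalized for each time point separately (neqc, limma 3.58.1, R 4.3.3). Each time point was fitted with its 6 groups by lmFit and eBayes, probe by probe, and differences between times with all 12 groups normalized together. P-values were two-sided and Benjamini-Hochberg adjusted over all probes detected (p under 0.01) in at least 4 of 24 arrays. Gene symbols came from the platform annotation, with 1 symbol for 20984 probes and none for 3628. There were 4 probe IDs listed 2 times, which were averaged. Alternatives were no background correction, cyclic loess, the deposited log2 values, other detection filters, 1 probe per gene, the block, a fit of only the groups compared, the cutoff of the study and leaving out each array. The code was tested on simulated data. Figures used matplotlib 3.10.9.

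The members, lists and tests were chosen with earlier results of these data known. By rule the text names Cyp1b1, members called in a fume comparison, the members called in sham at both times with the largest differences, and the 2 smallest p of each fume comparison. Other members were named after their values were seen.

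According to the labels, arrays of 1 replicate number share a beadchip. On deviations from group means, arrays of a beadchip correlated at 0.261, 0.424, 0.354 and 0.321 on average at 4 weeks, against -0.115 between beadchips, and at 0.0552, 0.212, 0.166 and 0.0694, against -0.042, at 16 weeks. The main fit had no block, and counts with the block are printed where it moved them by over 1.5 times. Replicates are separate mice, and time points lie on different beadchips.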

Additional observations from a re-analysis of the deposited data

Results flagged for a closer look

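In 10 of 132 groups of 4 arrays (11 probes that the text turns on), 1 value lay far from the other 3, which chance gives in about 1 of 20 groups. On A/J sham replicate 4 at 16 weeks Gsta1 had 9.62 (next 8.23) and Gsta2 10.25 (next 8.49). At 4 weeks A/J sham replicate 4, another mouse, had 10.51 for Cyp4a12b (next 9.42) and 9.05 for Cyp4f15 (next 8.94). In GMA-SS lungs of A/J mice, Cyp4a12b had 9.29 on replicate 2 at 4 weeks (next 9.18), and Gstm6 had a lowest value of 7.90 on replicate 1 at 16 weeks (next 7.98). In GMA-MS lungs of A/J mice at 16 weeks, Cyp2b10 had 13.74 on replicate 3 (next 13.49). In B6 lungs after GMA-MS, replicate 1 gave 9.17 for Cyp3a13 at 4 weeks (next 8.76), and at 16 weeks 13.47 for Aldh3a1 (next 12.17) and a lowest value of 8.42 for Gstp3 (next 8.60). On that last array the squamous epithelium markers averaged 11.45, against 7.40 to 7.52 on the other arrays of its group.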

How the results depend on the processing

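The Cyp1b1 rise after GMA-SS in A/J at 16 weeks was called under all 8 other settings (0.45 to 0.60, adjusted p 4.6e-04 to 0.0483) and in all 8 fits without 1 array. Counts of members called between strains moved more. In sham at 4 weeks (16) it was 6 with cyclic loess, 10 with only the groups compared, 28 with the replicate block (30.8% of all probes) and 9 to 15 without 1 array. In sham at 16 weeks (19) it was 11 with cyclic loess and 7 at the study's cutoff (1.3-fold, p under 0.05, taken here as unadjusted, 11.4% of all probes). With GMA-MS at 4 weeks (16) it was 30 with the block (35.7%), and at 16 weeks (16) 4 at that cutoff (11.5%). With GMA-SS at 4 weeks (12) it was 7 with cyclic loess and 24 with the block (31.2%), and at 16 weeks (20) 11 with cyclic loess and 5 at the cutoff (12.1%). Shares of all probes with cyclic loess, with only the groups compared or without 1 array are not given here. Those counts are therefore not read as a result about the members. The cause was not tested. Shares for the cutoff counts that follow stand above. The cutoff also gave 2 members for GMA-MS over sham in A/J at each time, 2 and 3 for GMA-SS over sham in A/J at 4 and 16 weeks (1 with the block at 4 weeks), 2 for GMA-SS over GMA-MS in A/J at 4 weeks, 1 for each strain difference of a fume effect except GMA-MS at 4 weeks, and 4 for the strain difference between times. The block changed no other count by over 1.5 times, and it ended no call of a named member. It added a call for Cyp4f39 after GMA-SS in A/J at 4 weeks, and for probes of Cyp27a1 and Ugt1a7c between strains in sham at 4 weeks (-0.18 and 0.25). At 16 weeks it added Gsta1 (0.57, but 0.20 without A/J sham replicate 4).

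Of 1948 recomputed values of named members, 1780 kept direction and side of the threshold, 130 lost a call, 14 gained one and 24 changed sign, all among uncalled differences near 0. For Cyp1b1 these were the change of the GMA-MS effect between times in A/J (0.05, with -0.023 for cyclic loess and -0.033 to 0.12 without 1 array) and in B6 (-0.01, with 0.036 and -0.14 to 0.084), the GMA-SS effect in A/J minus B6 at 4 weeks (-0.02, with -0.12 to 0.071 without 1 array) and GMA-MS in B6 at 4 weeks (0.06, with -0.030 to 0.19). For strain in sham they were another Ugt1a7c probe (0.01 at 16 weeks, with -0.026 for cyclic loess and -0.0058 to 0.041 without 1 array, and -0.0069 to 0.099 at 4 weeks) and the bright Gstm6 probe at 4 weeks (0.05, with -0.022 to 0.090). Members near the floor, at log2 7.50 to 7.82, have compressed differences.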
